A study of Mus musculus with 44 samples.

Results

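RNA of whole brains was sequenced from 28 male C57BL/6 mice, and in 3 of the 8 brains of 26-month-old mice on a control diet (CD) the lipid droplet gene Plin4 stood apart from every other brain. These 3 brains, replicates 3, 6 and 7, were chosen by a measured value, a Plin4 level of 60 CPM or more, with CPM the count of a gene scaled to the total of its library. The other 5 CD brains of that age, replicates 1, 2, 4, 5 and 8, were below it, and they are called the low brains here. Both sets had the same label, strain, age and diet. CD is a diet rich in carbohydrate, and these mice received it without a break from the age of 12 months. The 20 remaining brains came from 12-month-old mice given CD (n = 5) or a ketogenic diet (KD, n = 7) for a week, and from 26-month-old mice given a cyclic KD, which alternates weekly with CD (n = 8). The brains and livers of the 26-month-old mice were collected at night in a week of CD feeding. In addition 16 livers of 26-month-old mice were sequenced, 8 of them from CD. No genotype beyond the strain is given, and no treatment other than diet.

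Perilipins coat lipid droplets, the stores of neutral fat in a cell, and control the access of lipases to them, and perilipin 4 is best known from white fat cells. Glucocorticoids, the stress hormones of the adrenal gland, enter cells and bind the glucocorticoid receptor Nr3c1. The receptor moves to the nucleus and turns on genes such as Fkbp5, whose product in turn makes the receptor less responsive, so that these genes serve as a readout of hormone action. Endothelial cells line the vessels of the brain and form the blood-brain barrier, and they hold the receptor as well.

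The 28 brain libraries held 7447742 to 12744415 counts. Low CD replicate 5 was the shallowest of them. The predicted gene Gm10800, which took up a varying share of some libraries, made up 0.0551% to 0.483% of the counts in the 3 high brains and 0.0607% to 1.22% in the low brains, with the highest value again in replicate 5. Below, levels are CPM scaled by the trimmed mean of M-values (TMM), except where Plin4 is given per total counts. Because the 8 CD brains were divided by a level measured in them, every gene of the division is given as a description without a test. Tests were run only in the 20 brains outside the division and in the livers. The labels do not say how the samples of a group were obtained beyond their numbers, so p-values measure the spread between these samples.

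Plin4 (ENSMUSG00000002831, GRCm38 chromosome 17, 56100591 to 56109803, minus strand) was at 89.75, 103 and 93.3 CPM of total counts in high replicates 3, 6 and 7. In low replicates 1, 2, 4, 5 and 8 it was at 16.2, 30.7, 24.5, 31.0 and 24.3 CPM. The lowest high brain was thus at 89.75 CPM and the highest low brain at 31.0 CPM, with no brain near the limit of 60. In the other groups the level ran from 16.8 to 22.9 CPM (median 18.6) in 12-month-old CD mice, from 13.2 to 29.2 CPM (median 17.9) in 12-month-old KD mice, and from 15.3 to 27.4 CPM (median 19.99) in 26-month-old KD mice. None of these 20 brains reached 60 CPM, and the 5 low brains lay within or just above their range.

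**Figure D1:**
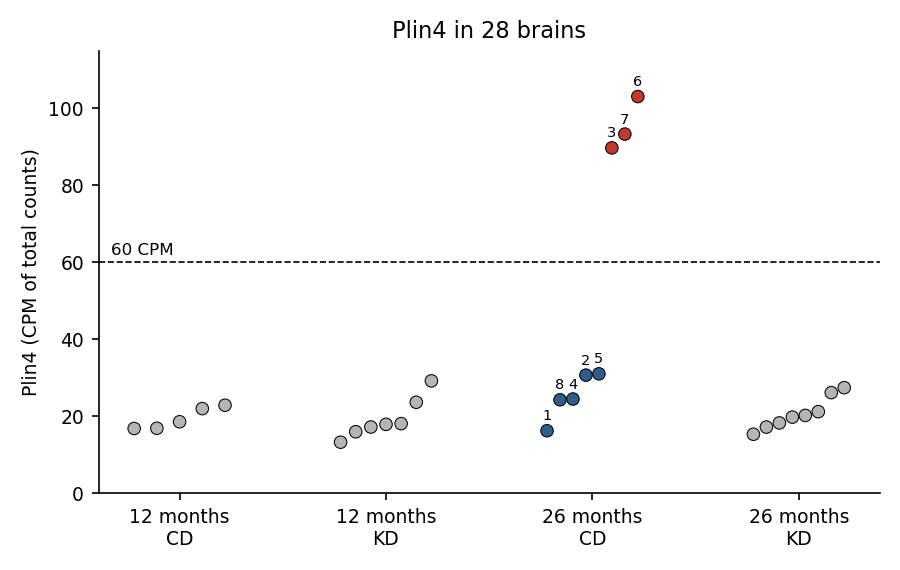
Plin4 in each of the 28 brains, in CPM of total counts on a linear axis, by age and diet. Each point is 1 library, red for the 3 high and blue for the 5 low CD brains of 26 months with their replicate numbers, and the dashed line is the limit of 60 CPM. The 3 high brains lie between 89.75 and 103 CPM and the remaining 25 between 13.2 and 31.0 CPM.

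The rest of the lipid droplet genes did not share this division. Of 26 genes of droplet coats, synthesis and breakdown, 21 passed the filter on low counts, and 2 were higher in each high brain than in every low brain. Across all genes this held for 911 of 22078, or 4.13%, and the reverse for 1019, or 4.62%. On CPM of total counts, without TMM, the split was 665 higher and 1232 lower. Pnpla2, the lipase that begins the breakdown of stored fat, was at 32.5, 30.1 and 26.8 CPM in the high brains and at 16.9, 20.02, 15.7, 22.0 and 19.4 CPM in the low brains, a log2 difference of 0.67. It was also above all 20 other brains, which reached 23.9 CPM. Acsl3, which activates fatty acids for storage, differed by 0.18 (log2), at 134 to 154 CPM against 116 to 132 CPM. The other perilipins overlapped. Plin2, the coat protein of most tissues, was at 5.64, 8.35 and 5.09 CPM in the high and 5.401 to 11.2 CPM in the low brains, Plin3 and Plin5 overlapped too, and Plin1 did not pass the filter. Fat cell markers were near the floor, with 1 of 8 passing the filter and a summed level of 1.13 to 2.97 CPM in the high and 1.44 to 5.34 CPM in the low brains. The median log2 difference of the 21 genes was 0.05, beside a median of 0.00 over all genes.

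Genes that glucocorticoids induce were the first group that went with Plin4. All 30 members of a list of known targets passed the filter. Of these, 13 were higher in each high brain than in every low brain (4.13% of all genes were) and 1 was lower (4.62% of all genes were), and 28 had a log2 difference above 0, with a median of 0.58. Without low replicate 5, described further on, 15 were higher, as were 1290 of all 22078 genes. Set against all 25 other brains rather than the 5 low ones, 12 of the 30 were still above every library, where 0.584% of all genes were. This list was written with earlier results of these data known, and the contrast is the one that chose the brains.

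Fkbp5 (ENSMUSG00000024222, chromosome 17, 28399094 to 28517527, minus strand), the cochaperone that dampens the receptor, was at 72.6, 54.9 and 58.3 CPM in high replicates 3, 6 and 7. In low replicates 1, 2, 4, 5 and 8 it was at 23.0, 24.8, 27.8, 19.6 and 27.7 CPM, a log2 difference of 1.33. The gap between the sets was wider than the span of the low brains, and the other 20 brains reached 33.5 CPM. Sgk1 (ENSMUSG00000019970, chromosome 10, 21882184 to 21999903, plus strand), a kinase that regulates ion transport, was at 252, 262 and 188 CPM against 70.8, 78.7, 89.9, 85.4 and 56.7 CPM, a log2 difference of 1.62. Hif3a (ENSMUSG00000004328, chromosome 7, 17031507 to 17062427, minus strand), a member of the hypoxia-inducible factor family, was at 83.0, 84.3 and 54.7 CPM against 10.1, 25.2, 15.3, 25.7 and 12.99 CPM, a log2 difference of 2.05. In none of the 3 genes did a high brain come close to a low one, and replicate 7 was the lowest of the high brains for Sgk1 and Hif3a.

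Cdkn1a, an inhibitor of the cell cycle, was at 19.8, 15.7 and 12.5 CPM in the high brains and between 5.85 and 8.82 CPM in the low brains, and Map3k6, a stress kinase, at 13.96, 7.88 and 7.00 CPM against 2.21 to 4.60 CPM. Ddit4, which restrains mTOR signalling, was at 45.1 and 38.4 CPM in replicates 3 and 6 but at 22.3 CPM in replicate 7, beside 14.04 to 19.4 CPM in the low brains. The order of these genes among the high brains was thus uneven, with replicate 7 nearest to the low brains for each of the 3. Nfkbia, the inhibitor of NF-kB, differed by 0.80 (log2), Cebpd, a transcription factor of the stress response, by 0.75, Arrdc2, an arrestin-like protein, by 1.28, Rhob, a small GTPase, by 0.57, and Klf15, a regulator of amino acid use, by 0.45. The remaining members without overlap were Sult1a1, a sulfotransferase, at 11.3 to 11.4 CPM against 5.84 to 8.61 CPM, and Fam107a, an actin-binding protein of the stress response. Fam107a was at 413 and 407 CPM in replicates 3 and 7 and at 264 CPM in replicate 6, against 225 to 255 CPM.

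Several genes that are as closely tied to the hormone overlapped between the sets. Tsc22d3, a leucine zipper protein that mediates anti-inflammatory effects, was at 77.3, 89.0 and 71.7 CPM in the high and 52.4 to 78.6 CPM in the low brains. Per1, a clock gene, was at 204, 145 and 128 CPM against 101 to 153 CPM, and Zbtb16, a transcription factor, at 135, 75.6 and 135 CPM against 43.1 to 82.5 CPM. Zbtb16 and Klf9 were both lowest in replicate 6 among the high brains. Bcl6, a transcriptional repressor, was the member that was lower, at 39.8, 44.8 and 44.6 CPM against 45.0 to 66.1 CPM.

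**Figure D2:**
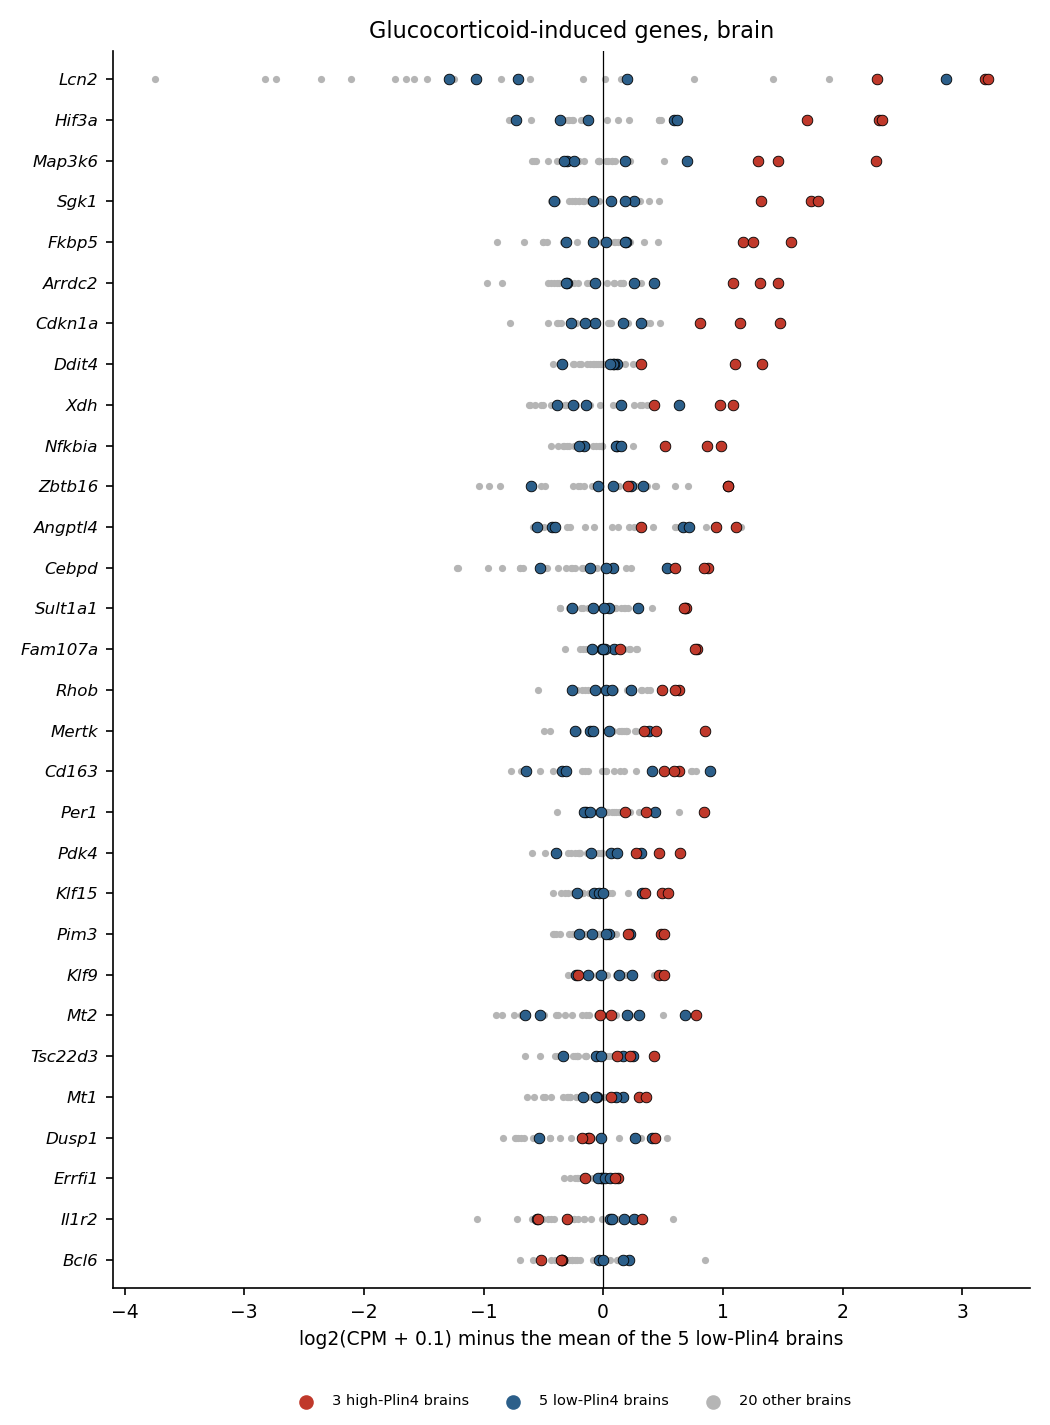
The 30 glucocorticoid-induced genes in the brain, as log2(CPM + 0.1) minus the mean of the 5 low brains, with 1 point per library (red: 3 high brains, blue: 5 low brains, grey: 20 other brains). Genes are sorted by the log2 difference between the high and low brains. For Hif3a, Map3k6, Sgk1 and Fkbp5 all red points lie to the right of every blue and grey point, for Lcn2 1 blue point, replicate 5, lies among them, and at the foot the sets mix or, for Bcl6, the red points lie to the left.

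The receptor itself and its partners did not follow. Of 18 genes of the receptor, its chaperones and the hormone axis that passed the filter of 19, none was higher without overlap and 2 were lower. Of all genes 4.13% were higher and 4.62% lower. Nr3c1, the glucocorticoid receptor, was at 150, 133 and 162 CPM in the high and 149 to 200 CPM in the low brains, which overlap. Fkbp4, the cochaperone that helps the receptor to the nucleus and that Fkbp5 opposes, was at 39.9, 58.4 and 49.2 CPM against 62.5 to 90.3 CPM, a log2 difference of -0.67. Crhr1, the main receptor of corticotropin-releasing hormone, differed by -1.39 (log2), but it was at 15.4 CPM in low replicate 4 and at 23.3 to 48.2 CPM in the other low brains, a pattern it shared with the cerebellar genes described further on. Hsd11b1, which regenerates the active hormone inside cells, was at 5.84, 9.29 and 8.91 CPM against 9.27 to 22.0 CPM and overlapped by replicate 4 alone.

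The letters that the receptor is known to bind were read in the promoters of these genes, to show what the window of Sgk1, one of the genes highest with Plin4, holds and that of Plin4 does not. The search used the half-site TGTTCT on either strand in windows of 300 bases, 250 before and 50 after each gene start of RefSeq on GRCm38.p6, and the facing pair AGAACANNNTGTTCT, which contains 2 half-sites. Of 40 windows of 27 matched genes, the list and Plin4, 9 held a half-site, or 22.5%, and 1 held the pair, beside 19.0% and 0.00913% (3 windows) of all 32851 windows. Of 23 windows of 17 matched genes among the 20 with the largest difference, 7 held a half-site, or 30.4%. Starts of the same gene count as separate windows. Sgk1, in both sets, and Fam107a, in the list, each held a half-site in more than 1 window. Those windows of Fam107a overlap almost fully and hold the same half-sites, which are thus counted more than once. The pair lay in a window of Sgk1, and it starts 189 bases before a start of that gene. The bases before that start and those before the start of Plin4 are printed below 5′ to 3′ on the gene's strand, with half-sites in capitals. The stretch of Sgk1 is chr10:21993640-21993889, plus strand, 250 bases inside the span of the gene that overlap no annotated exon. The stretch of Plin4 is chr17:56109804-56110032, minus strand, 229 bases outside the annotated gene.
Sgk1: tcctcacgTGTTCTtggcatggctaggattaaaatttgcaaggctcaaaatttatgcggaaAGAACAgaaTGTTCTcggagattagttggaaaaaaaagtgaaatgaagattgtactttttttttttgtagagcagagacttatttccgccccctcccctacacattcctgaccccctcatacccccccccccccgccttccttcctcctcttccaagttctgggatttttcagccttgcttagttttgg
Plin4: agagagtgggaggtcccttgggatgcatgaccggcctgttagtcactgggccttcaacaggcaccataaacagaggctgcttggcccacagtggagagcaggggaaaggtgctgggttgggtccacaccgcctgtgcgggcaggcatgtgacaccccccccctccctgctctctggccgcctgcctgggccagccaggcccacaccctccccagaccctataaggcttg
The stretch of Sgk1 holds 3 half-sites, and that of Plin4 holds none of these letters. The windows of Fkbp5 and Hif3a held no half-site either. A match is a description of the sequence only.

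Vessel genes were the second group that went with Plin4. All 25 endothelial markers passed the filter, and 15 of them were higher in each high brain than in every low brain (4.13% of all genes were). None was lower (4.62% of all genes were), and the median log2 difference was 0.61. Without replicate 5, 17 were higher, as were 1290 of all 22078 genes. Above all 25 other brains were 7 of them, where 0.584% of all genes were. In bulk tissue, more cells of a type and more RNA per cell cannot be told apart. Vwf (ENSMUSG00000001930, chromosome 6, 125546774 to 125686679, plus strand), the clotting factor stored in endothelial cells, was at 189, 102 and 64.9 CPM in high replicates 3, 6 and 7. In low replicates 1, 2, 4, 5 and 8 it was at 13.3, 15.4, 16.9, 58.9 and 12.6 CPM, a log2 difference of 2.36. Replicate 5 thus lay next to replicate 7, far above the other 4 low brains, and 1 of the 20 other brains, KD replicate 13 of 26 months, was at 63.8 CPM.

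The barrier genes were more even. Slc2a1, the glucose transporter of the barrier, was at 163, 155 and 123 CPM in the high and 76.1, 83.7, 72.3, 97.8 and 67.5 CPM in the low brains, a log2 difference of 0.89. Mfsd2a, the lipid transporter of the barrier, differed by 0.64, Slco1a4, an organic anion transporter, by 0.67, and Erg, a transcription factor of endothelial identity, by 1.12, and each was above all 25 other brains. The surface antigens Ly6a and Ly6c1 were also above every other library, though replicate 5, at 27.3 and 47.0 CPM, came close to the lowest high brain, at 28.4 and 47.9 CPM. Ly6c1 has close copies, so its reads may be shared with them. Cldn5, a tight junction protein, at 16.8, 16.4 and 11.4 CPM against 7.79 to 11.1 CPM, and Cdh5, the endothelial cadherin, at 20.5, 17.7 and 13.5 CPM against 9.39 to 12.8 CPM, were higher than in the low brains. The other 20 brains reached 15.7 CPM for Cldn5 and 18.4 CPM for Cdh5, so replicate 7 lay within their range for both genes and replicate 6 for Cdh5. The remaining 10 markers of the same cells, such as the growth factor receptors Kdr and Tek and the adhesion molecule Pecam1, overlapped.

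**Figure D3:**
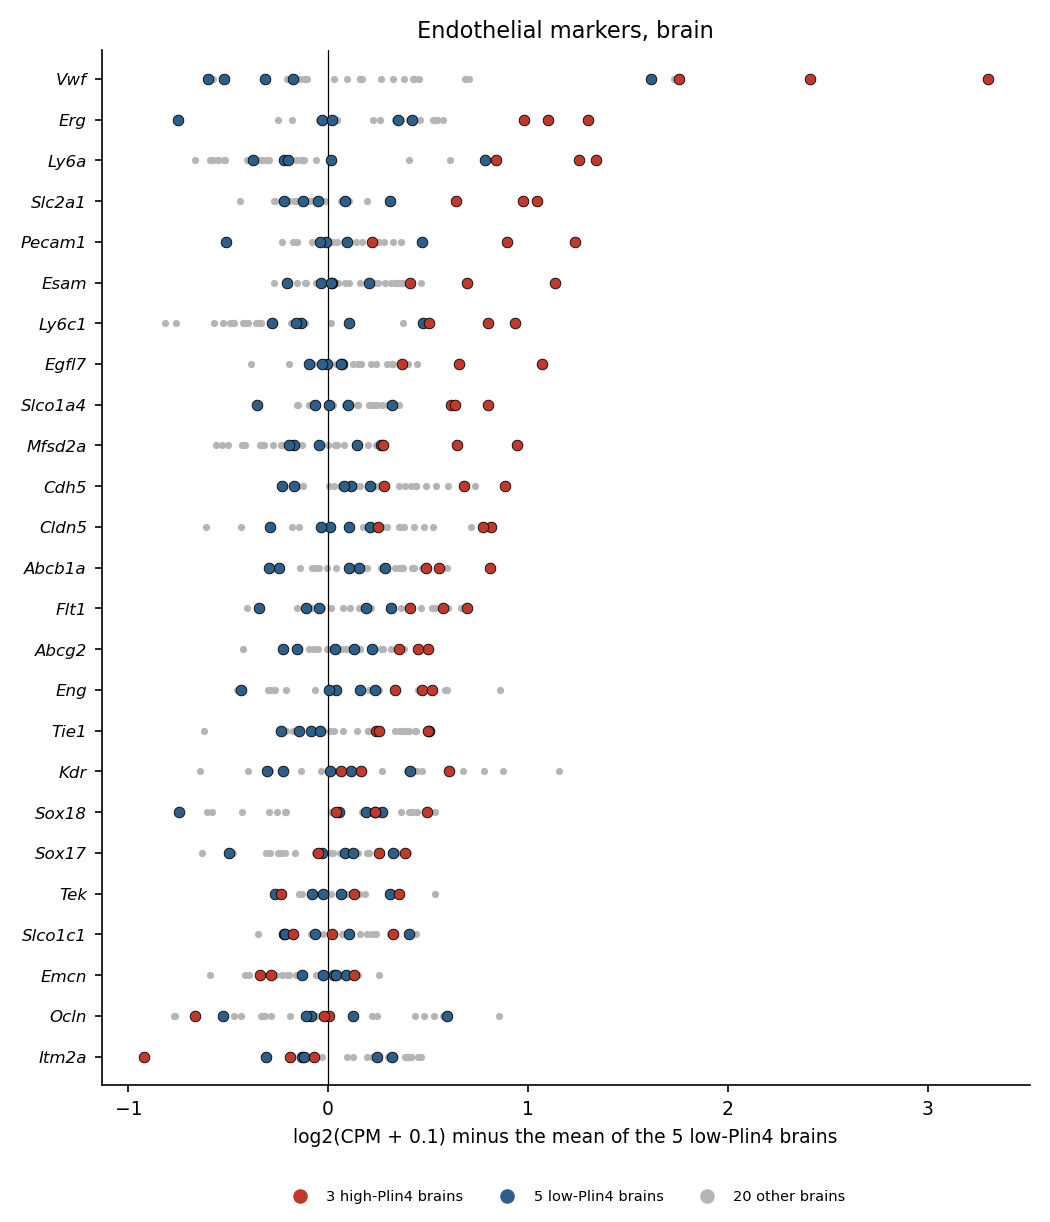
The 25 endothelial markers in the brain, as log2(CPM + 0.1) minus the mean of the 5 low brains, with 1 point per library (red: 3 high brains, blue: 5 low brains, grey: 20 other brains). Vwf shows the widest spread, with 1 blue point, replicate 5, and 1 grey point close to the lowest red point, while Emcn, Ocln and Itm2a at the foot have red points among or below the blue ones.

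Genes of activated vessels and of the cells around them were higher in part. Among all genes 4.13% were higher without overlap, and 0.584% were above all 25 other brains. Of 20 vessel activation genes 14 passed the filter and 3 were higher without overlap, Lrg1, a secreted glycoprotein induced by inflammation, Osmr, the receptor of oncostatin M, and Socs3, a feedback inhibitor of cytokine signalling. Lrg1 was at 14.7, 6.47 and 3.82 CPM against 0.629, 0.388, 1.71, 3.48 and 0.673 CPM, with replicate 5 again just below replicate 7. Osmr was at 21.2, 19.1 and 19.7 CPM against 18.1 CPM in replicate 5 and 8.00 to 12.4 CPM in the other low brains. The adhesion molecules of inflamed vessels overlapped, with Icam1 at 1.88, 3.75 and 3.37 CPM against 1.17 to 4.22 CPM and Vcam1 at 15.4, 28.1 and 27.8 CPM against 17.5 to 27.1 CPM. Of 17 pericyte and smooth muscle genes 16 passed the filter and 5 were higher, among them Pdgfrb, the growth factor receptor of pericytes, at 28.9, 24.9 and 27.2 CPM against 19.4 to 24.1 CPM, but none was above all 25 other brains.

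Of 5 genes of red cells, 0 were higher without overlap in the high brains, since replicate 5 of the low brains was also high. The summed level of these genes, Hba-a1, Hba-a2, Hbb-bs, Hbb-bt and Alas2, was 211 to 368 CPM in the high brains, 346 CPM in replicate 5 and at most 140.5 CPM in the other 4 low brains, and it was 43.2 to 186.9 CPM in the other 20 brains. The globin genes come in near-identical copies, so the division of reads among them is uncertain. None of the 5 was at 0 in any high brain, and their part in the vessel values was not tested. For 379 genes the 3 high brains were all above the remaining 4 low brains and replicate 5 was at or above the lowest high brain. Genes in which replicate 5 lay between the sets, such as Vwf and Lrg1, are not among the 379. Without replicate 5, 1290 genes, not 911, were higher in the high brains.

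Immune genes did not follow as a group. For comparison, 4.13% of all genes were higher and 4.62% lower without overlap. Of 28 genes of the type I interferon response none was higher and 2 were lower, Ifit3, at 6.44, 8.54 and 6.82 CPM against 10.3 to 15.6 CPM, and Ifi27l2a, and the median log2 difference was -0.33. Of 14 markers of resting microglia none was without overlap. Of 17 genes of disease-associated microglia Csf1, a growth factor of microglia, and Fth1, the ferritin heavy chain, were higher and Cd63, a vesicle protein, was lower. Csf1 was at 43.1, 49.6 and 42.6 CPM against 34.4 to 40.9 CPM, just above the other 20 brains, which reached 42.5 CPM, and it was the 1 gene higher without overlap among 13 tested NF-kB cytokine genes. Stab1, a scavenger receptor of macrophages and sinusoidal endothelium, was at 23.9, 21.6 and 24.3 CPM against 12.5 to 14.7 CPM and was 1 of 6 tested genes of border macrophages. Neutrophil markers were near the floor, 3 of 12 passing the filter and none without overlap, and of 14 lymphocyte markers 2 passed.

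Lcn2 is an iron-binding protein of acute inflammation that glucocorticoids also raise. It was at 12.2, 12.4 and 6.46 CPM in the high brains, at 9.69 CPM in replicate 5, and at 0.450, 0.543, 0.720 and 1.44 CPM in the other low brains. The other 20 brains were between 0 and 4.87 CPM. Of 22 reactive astrocyte genes 2 were higher (4.13% of all genes were), Cp, the copper-binding ferroxidase, and Ggta1, a glycosyltransferase. Of 16 immediate early genes, which mark recent neuronal activity, none was without overlap. Of 11 heat shock genes none was higher and 2 were lower (4.62% of all genes were), Hspa5 and Hspe1, the chaperones of the endoplasmic reticulum and the mitochondria.

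Genes of fasting and fat burning gave a mixed picture. Of 18 genes that the fatty acid receptor PPAR alpha or fasting raises, 16 passed the filter and 4 were higher without overlap (4.13% of all genes were). Txnip, which lowers glucose uptake, was at 37.1, 35.9 and 22.2 CPM against 12.8 to 15.7 CPM, a log2 difference of 1.20, and above all other brains. Ucp2, a mitochondrial carrier, was at 29.3, 40.5 and 32.7 CPM against 21.8 to 28.95 CPM, but 6 of the 20 other brains were at or above 29.3 CPM. Acot1, a thioesterase of fatty acids, was at 9.41, 7.60 and 7.18 CPM against 4.95 to 6.20 CPM and above all other brains. Pdk4 and Angptl4, common targets of the same receptor and of glucocorticoids, overlapped, at 14.6 to 18.9 CPM against 9.14 to 15.03 CPM and at 1.73 to 3.07 CPM against 0.900 to 2.31 CPM.

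Of the genes without overlap, 72 were more than 2-fold higher and 141 more than 2-fold lower. Of the 20 coding genes with the largest difference 13 were above all 25 other brains. Besides those named, Acer2, a ceramidase, was at 57.1, 38.0 and 25.1 CPM against 8.54 to 21.7 CPM, with replicate 5 highest among the low brains. Fmo2, a flavin monooxygenase, was at 19.7, 10.3 and 10.6 CPM against 4.04 to 8.70 CPM, and Ckmt2, a mitochondrial creatine kinase, at 5.74, 3.85 and 3.64 CPM against 1.16 to 1.71 CPM. Trh, a hypothalamic hormone, had the largest difference, 3.14 (log2), yet it rested on replicate 6, at 31.4 CPM, while replicates 3 and 7 were at 2.48 and 2.73 CPM beside 0.481 to 2.25 CPM in the low brains. Without replicate 6 the log2 ratio of the means was 0.92. Replicate 6 was also high in Avp, another hypothalamic hormone, at 17.4 CPM against at most 0.720 CPM in the remaining 7 CD brains, so hypothalamic RNA differed among the high brains.

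The genes most like Plin4 were ranked by Pearson's r of log2 CPM over the 8 CD brains, which form 2 separate clusters, so that r mainly measures how evenly a gene divides them. The first were Ifitm1 (r = 0.99), a membrane protein that interferon induces, Sult1a1 (0.98), Stab1 (0.97), Hif3a (0.97) and Pnpla7 (0.97), a lysophospholipase. Ifitm1 was at 2.18, 1.97 and 2.18 CPM against 0.899 to 1.24 CPM. Wbp1l and Pcdhb8, also among the first 10, differed by 0.13 and 0.35 (log2), so that likeness went with small differences too. Sgk1 was the last of these 10 (0.95).

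Cerebellar genes led those that were lower. Of the 10 coding genes with the most negative difference, Car8, Pcp2 and Skor2 are expressed in Purkinje cells and Neurod1 and Cdh15 in granule cells of the cerebellum. Car8, a carbonic anhydrase-like protein, was at 5.15, 7.79 and 6.46 CPM in the high brains, at 8.91 CPM in low replicate 4, and at 209 to 362 CPM in low replicates 1, 2, 5 and 8. Of 10 cerebellar markers, 3 were lower without overlap (4.62% of all genes were), none was higher, and the median log2 difference was -3.59. Their summed level was 720 to 1048 CPM in the high and 1080 to 3431 CPM in the low brains. The 3 high brains and replicate 4 thus held little cerebellar RNA beside the other 4 low brains.

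Car8 was lower in the 3 high brains, at 5.15 to 7.79 CPM, than in all other brains, though by a narrow margin. Whether the share of cerebellum bears on Plin4 was not tested. Of the 25 brains with low Plin4, 8 had Car8 below 20 CPM, from 8.39 to 13.9 CPM, and their Plin4 was 13.2 to 27.4 CPM of total counts. The 17 brains with Car8 of 21.5 to 499 CPM had Plin4 at 15.3 to 31.0 CPM. Against replicate 4 alone, a comparison added after the values were seen, the log2 ratio of the mean of the high brains was 1.16 for Fkbp5, 1.38 for Sgk1, 2.27 for Hif3a, 2.81 for Vwf and 1.02 for Slc2a1, while it shrank to -0.46 for Car8 and -0.38 for Neurod1. Gkn3, a gene of arterial endothelium, was the exception among the 10 lowest genes, at 0.0990, 0.281 and 0.546 CPM against 1.24 to 1.71 CPM in every low brain, replicate 4 included, and at 0.836 CPM or more in the other 20.

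**Figure D4:**
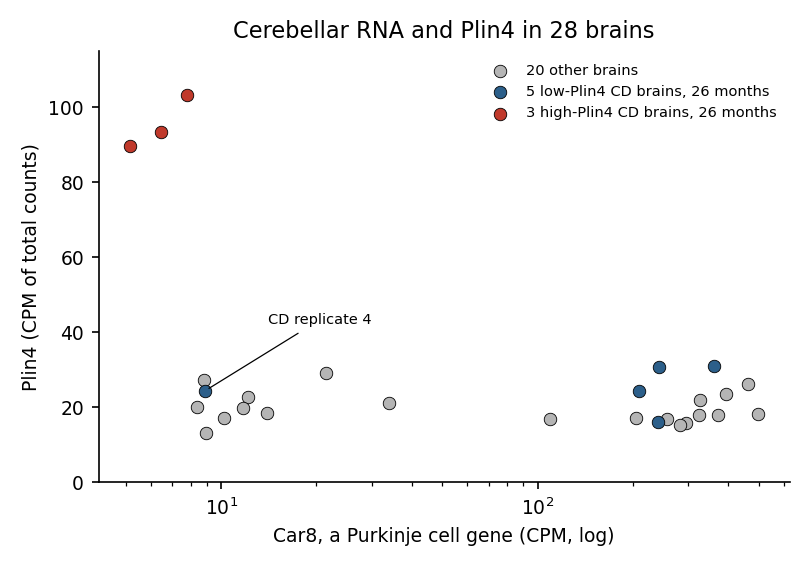
Plin4 (CPM of total counts, linear axis) against the Purkinje cell gene Car8 (CPM, log axis) in the 28 brains, 1 point each, with low CD replicate 4 marked. The 3 red points, the high brains, are alone above 60 CPM and also have the lowest Car8. The 8 other brains with Car8 below 20 CPM, from 8.39 to 13.9 CPM, have Plin4 between 13.2 and 27.4 CPM.

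Whether these genes also go with Plin4 where it is low was tested in the 20 brains that the division did not use, with the slope of each gene on log2 Plin4 within the groups of age and diet. By edgeR's quasi-likelihood test 0 of 22078 genes (0%) passed an adjusted p of 0.05, and DESeq2 and limma also called 0. At an unadjusted p under 0.05 there were 564 genes, 349 with a positive and 215 with a negative slope. The range of Plin4 in these brains, 13.2 to 29.2 CPM, is narrow and reaches none of the levels of the high brains, so the slopes speak only for that range. Of the 911 genes that were higher in the high brains, 338 had a slope above 0, or 37.1%, beside 48.5% of all genes.

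Of the 30 glucocorticoid genes 20 had a slope above 0 and none was called. Fkbp5 had a slope of -0.06 log2 units per doubling of Plin4 (SE 0.27), Sgk1 of 0.35 (SE 0.17), Hif3a of 0.51 (SE 0.26) and Vwf of -0.63 (SE 0.33), each with an adjusted p of 1 by edgeR. The sign for Fkbp5 changed with the scaling of Plin4 and with single libraries. Xdh, which makes uric acid, Dusp1, a phosphatase of the stress kinases, and Pim3, a growth kinase, were the 3 members with an unadjusted p under 0.05, with slopes of 0.56 (SE 0.22), 0.50 (SE 0.21) and 0.25 (SE 0.10). All 3 overlapped between the high and low CD brains. Of the endothelial markers 9 of 25 had a slope above 0, and none was called.

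Single genes were also correlated with Plin4 within the 8 KD brains of 26 months and the 7 KD brains of 12 months, in 32 relations of 16 genes. The lowest p adjusted over these was 0.498 by exact permutation. In the 12-month-old KD brains Map3k6 had r = 0.82 (exact permutation p = 0.0214, n = 7) with rho = 0.71 (exact permutation p = 0.0881), and r = 0.42 without the 2 brains farthest from the median of Plin4. Ddit4 had r = 0.81 (exact permutation p = 0.0311, n = 7) with rho = 0.61 (exact permutation p = 0.167), and r = -0.15 without those brains, so that this relation rested on them. Fkbp5 had r = 0.15 in the 26-month-old KD brains (exact permutation p = 0.727, n = 8) and r = -0.14 in the 12-month-old ones (exact permutation p = 0.761, n = 7).

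The livers gave a separate readout. Brain and liver samples carry the same numbers, although the labels do not say that a number is 1 mouse, so CD livers 3, 6 and 7 were compared with CD livers 1, 2, 4, 5 and 8 by number. By edgeR 1553 of 18002 genes were higher (8.63%) and 2944 lower (16.4%) at an adjusted p under 0.05, with the lowest adjusted p at 0.0371. These calls sat close to the threshold, and 0 genes were called in either direction without replicate 1, 2, 3, 4, 6 or 8, while 4717 and 5267 were called without replicate 5, and 1135 and 2754 without replicate 7. Without one of those 6 livers the adjusted p of Fkbp5 was 0.0745 to 0.133, at log2 fold changes of 2.40 to 2.73.

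Fkbp5 was at 321, 277 and 391 CPM in livers 3, 6 and 7 and at 31.9, 82.9, 43.2, 82.0 and 41.5 CPM in livers 1, 2, 4, 5 and 8, with a log2 fold change by edgeR of 2.55 (SE 0.34, adjusted p = 0.0371). The groups were far apart, with the lowest of the 3 above every other liver by more than the span of the 5. Sgk1 was at 174, 126 and 185 CPM against 42.5, 36.6, 41.2, 87.5 and 41.6 CPM, with a log2 fold change by edgeR of 1.70 (SE 0.30) and the same adjusted p. Ddit4 was at 174, 22.1 and 41.6 CPM against 8.27 to 12.5 CPM, which gave 3.03 (SE 0.58) and again that adjusted p. In each of these genes liver 5 was at or near the top of the 5 livers of low-Plin4 numbers, and liver 3 stood out for Ddit4.

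Of the 30 glucocorticoid genes 28 were tested in the liver, 11 were higher and 2 lower, beside 8.63% and 16.4% of all liver genes. Of the 12 tested that were higher without overlap in the brain, 6 were higher in the liver, Fkbp5, Sgk1, Ddit4, Map3k6, Nfkbia and Cebpd, and 1 was lower, Klf15, with a log2 fold change of -1.76. Of 711 tested genes that were higher without overlap in the brain, 110 were higher in the liver, or 15.5%, and 89 were lower, or 12.5%, beside 8.95% and 15.2% of the 16227 genes tested in both tissues. Of the 20 brain genes with the largest difference 15 were tested and 9 were higher, among them Vwf (1.73), Txnip (1.41), Cyp1b1 (1.32), Fmo2 (1.31) and B3gnt3 (2.01), all as log2 fold changes in the liver, and none was lower.

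Plin4 itself did not carry over. It was at 28.0, 9.28 and 15.7 CPM in livers 3, 6 and 7 and at 33.8, 25.7, 28.2, 11.3 and 20.8 CPM in the others, 17.6 ± 9.49 against 24.0 ± 8.52 CPM (SD, n = 3 and 5, exact two-sided permutation p = 0.357, where the smallest possible is 0.0357). Its log2 fold change by edgeR was -0.44 (SE 0.43, adjusted p = 0.439). Of 25 tested lipid droplet genes 12 were lower in these livers and 1 was higher, beside 16.4% and 8.63% of all genes. The lower ones included Plin2 (-0.80), Plin5 (-1.77), Dgat2 (-2.06) and G0s2 (-3.09). The higher one was Hilpda (2.91), an inhibitor of lipolysis that hypoxia induces.

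The same livers differed in much else, where 8.63% of all genes were higher and 16.4% lower. Of 8 tested neutrophil genes 7 were higher, such as Mmp9, a granule protease, at 234, 807 and 81.0 CPM against 1.28 to 14.1 CPM. Of 16 tested acute phase genes 7 were higher, such as Saa1, whose close copies may share its reads, and 1 was lower, Hamp, the iron hormone, by 3.95 on the log2 scale. Lcn2 was at 1350, 1120 and 979 CPM against 459 CPM in liver 5 and 12.3 to 44.3 CPM in livers 1, 2, 4 and 8, a difference of 3.38 on the log2 scale (SE 1.23) that missed the threshold (adjusted p = 0.070 by edgeR) and passed without liver 5 (5.66, adjusted p = 0.000169). Of 27 targets that glucocorticoids and fasting share in the liver, 8 were lower and 4 higher. Among the lower were Tat (-1.56), G6pc (-2.47), Pdk4 (-1.42) and Ppargc1a (-1.27), and among the higher Fkbp5, Sgk1 and Ddit4. Male-biased genes such as Elovl3, at 0.131, 0.0800 and 1.39 CPM against 311 to 526 CPM in livers 1, 2, 4 and 8, were low in liver 5 as well, at 2.02 CPM. Liver 1 alone of the 8 held much Gm10800, 1.61% of its counts.

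**Figure D5:**
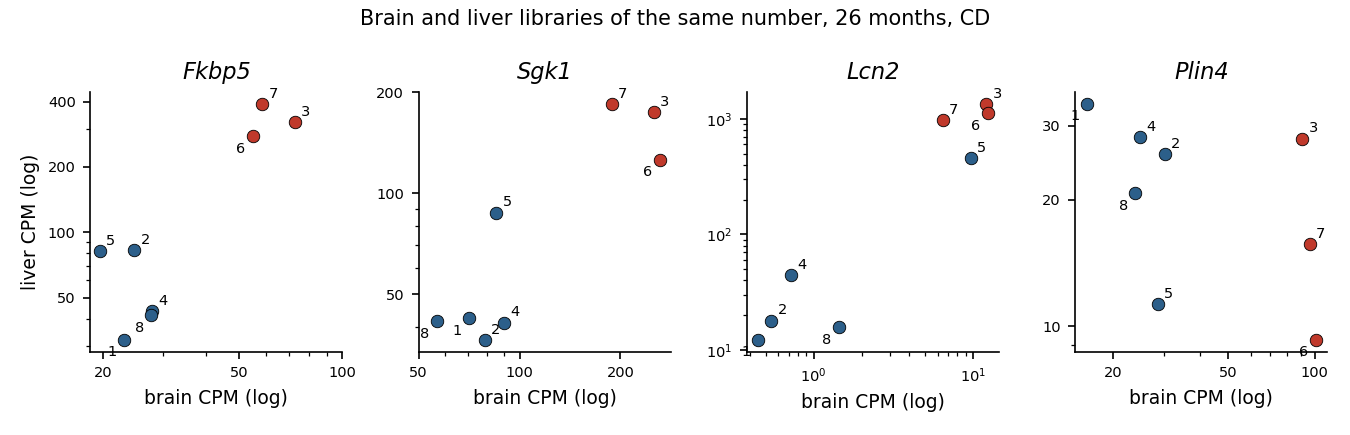
Fkbp5, Sgk1, Lcn2 and Plin4 in the CD brain (x axis) and the CD liver of the same number (y axis), both in CPM on log axes, with each point 1 number (red: 3, 6 and 7, blue: 1, 2, 4, 5 and 8). For Fkbp5 and Sgk1 the red points are highest on both axes, for Lcn2 number 5 lies with them, and for Plin4 the red points are high in the brain and spread over the range of 9.28 to 28.0 CPM in the liver.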

How the data were processed

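RNA of whole brain and liver was sequenced after removal of ribosomal RNA. The authors deposited raw counts per gene, whole numbers that sum to a different total in each library. Per the labels, reads were trimmed with Trimmomatic, aligned to GRCm38 with STAR and counted with RSEM. Whether counting used strand is not given in the sources used here. Of 54446 identifiers 54409 received a symbol from GENCODE vM21. The members and gene lists were chosen with earlier results of these data known. Named genes are Plin4, the 20 largest and 10 smallest coding differences without overlap at a mean of 1 CPM or more, the 10 genes most like Plin4, those of the smallest p in the other brains, and list members. Predicted genes are not named, except Gm10800. Some genes are not reported here.

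In R 4.3.3, edgeR 4.0.16 filtered low counts (filterByExpr, 22079 brain and 18002 liver genes), scaled by TMM and, outside the division by Plin4, tested with quasi-likelihood, adjusted by Benjamini-Hochberg. The 20 other brains were fitted with group and log2 of the CPM of total counts of Plin4, Plin4 left out of the genes tested, and the 8 CD livers by number. Pearson's r with Plin4 over the 8 CD brains used log2 CPM with a prior count of 2. Differences between high and low brains are edgeR log2 fold changes without p. Libraries held 6879726 to 12744415 counts, and intervals from counts would cover counting error only. Alternatives were DESeq2 1.42.0, limma 3.58.1, RLE or total-count scaling, other filters, samples and limits, and each library left out. The fits were tested on simulated data. Figures were drawn with matplotlib.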

Additional observations from a re-analysis of the deposited data

Results flagged for a closer look

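Of 65 pairs of a gene and a group of 5 to 8 libraries, 12 had 1 library set apart from the rest by a gap that is large for the range of the group. The limit on the gap is made to set apart about 1 in 20 groups of normally distributed values. CPM on a linear scale need not be so distributed, so the 12 are not weighed against chance. Among the CD brains of 26 months, Trh in replicate 6 was at 31.4 CPM with the next library at 2.73 CPM, and Lrg1 in replicate 3 was at 14.7 CPM with the next at 6.47 CPM. Both are high-Plin4 brains. Among the KD brains of 26 months, replicate 13 stood apart in 4 genes, Vwf (63.8 CPM, next 25.8), Lrg1 (4.99, next 1.56), Trh (6.70, next 2.23) and Lcn2 (4.87, next 2.17). Its Plin4 was not high. Among the KD brains of 12 months, replicate 8 stood apart in Sgk1 (92.5 CPM, next 65.5) and Hif3a (23.4, next 15.2), replicate 5 in Trh (13.6, next 5.19) and replicate 11 in Lcn2 (3.50, next 0.645). Among the CD livers, replicate 3 stood apart in Ddit4 (174 CPM, next 41.6) and replicate 6 in Mmp9 (807 CPM, next 234), and both belong to the numbers of high-Plin4 brains. Why single libraries stood apart was not tested.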

How the results depend on the processing

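In the CD brains, 911 genes were higher and 1019 lower without overlap. With the 4 highest against the 4 lowest by Plin4 these were 546 and 366, and against all 25 other brains 129 and 73, where more libraries must not overlap. CPM of total counts gave 665 higher and 1232 lower, a split that leans further to lower. Leaving out 1 library gave 1029 to 2153 higher and 1150 to 2426 lower, since fewer libraries must not overlap. Past 1.5 times the count were the values without replicate 3 (1369 higher), 4 (1843 and 2290), 6 (2153 and 2426) and 7 (1990 and 2045). A limit of 40 CPM gave the same division. In the 20 other brains the calls were 0 under every alternative run. No replicate block is implied by the labels, as only 4 numbers occur in 2 of these brains, from different mice. A replicate block by limma (correlation 0.0492) also called 0 genes and changed no other call. The slope of Fkbp5 turned positive with sample quality weights (0.23), in the KD brains of 26 months alone (0.053), with Plin4 scaled by TMM (0.056), and without KD replicate 14 (0.0087) or 17 (0.196) of 12 months or 14 of 26 months (0.057), never past the threshold. Leaving out 1 library it ran from -0.22 to 0.196. The cause was not tested. In the livers DESeq2 called 2930 higher, the slope on brain Plin4 2829, and no filter 431 higher and 983 lower. Leaving out 1 liver gave 0 to 4717 higher and 0 to 5267 lower, and the cause was not tested. The narrow range of Plin4 limits the other brains, and 8 livers limit the comparison by number.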

Other observations

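In the 20 brains outside the division, no gene passed the adjustment, and the 10 coding genes with the smallest unadjusted p in each direction held no member of the glucocorticoid or endothelial lists. Gabrr2, a subunit of the rho class of GABA receptors, had a slope of 1.28 log2 units per doubling of Plin4 (SE 0.31, adjusted p = 1 by edgeR). It was also higher without overlap in the CD brains, at 6.63, 5.91 and 4.002 CPM in the high brains and 1.89 to 2.87 CPM in the low brains, and it reached 3.53 CPM in the other 20. Gh, the growth hormone of the pituitary, had a slope of 4.23 (SE 0.99, adjusted p = 1 by edgeR), at 0 to 15.1 CPM in the 20 brains. In the CD brains it overlapped, at 8.16 CPM in replicate 6 and at most 2.64 CPM in the other 7. Cbs, an enzyme of cysteine synthesis, had a slope of 0.31 (SE 0.097, adjusted p = 1 by edgeR) and was at 23.4, 30.7 and 25.4 CPM in the high and 18.1 to 23.1 CPM in the low brains.

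Myelin genes divided among themselves in the CD brains. Mal and Mobp were higher without overlap, and Ugt8a, which makes the galactolipids of myelin, was lower. Ugt8a was at 36.8 CPM in replicate 3, at 88.7 and 89.0 CPM in replicates 6 and 7, and at 112 to 127 CPM in the low brains, while Mobp was at 841, 1171 and 947 CPM against 721 to 832 CPM.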
